A study of Mus musculus with 10 samples.

Results

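The genes measured here are 9 chromatin regulators of germinal center (GC) B cells. They are the corepressors that BCL6 recruits (Ncor1, Hdac3, Tbl1xr1 and Bcor), the enhancer coactivators that oppose them (Crebbp, Ep300 and Kmt2d) and the SWI/SNF subunits Arid1a and Smarca4. The genes were matched by symbol in the transcript names, and they make up 9 of the 22380 genes in the tables. RNA was measured in NP-binding GC B cells (GL7+IgD-) sorted 2 weeks after immunization of mice with NP-OVA, a hapten coupled to ovalbumin, in alhydrogel. The libraries came from 2 ZBTB38 WT mice (Zbtb38fl/fl without Cre), 2 ZBTB38 HET mice (Zbtb38fl/+ x Vav-Cre) and 6 ZBTB38 KO mice (Zbtb38fl/fl x Vav-Cre), all labelled C57Bl6/N, and no age was given. Vav-Cre is active in hematopoietic cells in general, the WT mice also carry floxed alleles, and Cre is absent from WT and present in HET and KO. The floxed allele traces to a single founder. Each library is taken as 1 mouse.

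BCL6 is the BTB-zinc finger repressor that holds B cells in the GC program. It silences genes by recruiting NCoR, which carries the histone deacetylase HDAC3, and by recruiting BCOR, which brings in a Polycomb complex. CREBBP and EP300 acetylate and KMT2D methylates histones at enhancers of many of the same targets, the SWI/SNF complex opens chromatin there, and these regulators are recurrently mutated in lymphomas of GC origin. ZBTB38 belongs to the same BTB-zinc finger family and binds methylated CpG. The comparison of genotypes therefore asks whether the cofactors of GC repression and activation keep their levels when Zbtb38 is deleted.

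Because ZBTB38 reads CpG methylation, the CpG content of the start regions was described first. RefSeq gave 11 start regions for 8 of the 9 genes, each from 250 bases before to 50 bases after a start site on GRCm38.p6. They held a median of 27 CpG (range 2 to 49), against a median of 7 over all 32851 mouse start regions. The richest was Crebbp with 49 CpG, and the poorest was the downstream start of Ncor1 with 2, whereas the upstream start of Ncor1 held 36. Both strands were searched for 5 motifs. The GC box GGGCGG was present in 8 of the 11 regions, against 35.7% of all regions. The ETS motif CCGGAA was found in 2 (14.9% of all), the NRF1 motif in 1 (4.6% of all) and the CRE TGACGTCA in 0 (1.79% of all). The BCL6-type motif TTCCTNGAA occurred in 1 region (1.59% of all), at the downstream Ncor1 start. The upstream Ncor1 start also held 2 GC boxes and the downstream start 0. The windows shown are the BCL6-type and ETS matches of the Ncor1 starts, with the NRF1 match of Smarca4 and a GC box of Crebbp, with the matching letters in capitals and all on the strand of the gene.
Ncor1, BCL6-type motif 5 bases past the downstream start, chr11:62438491-62438520, minus strand: tgtaggttgcTTCCTAGAAacatggttgtt
Ncor1, ETS motif 53 bases before the upstream start, chr11:62457368-62457397, minus strand: ctccccaaccctCCGGAAggaggaggagcc
Smarca4, NRF1 motif 193 bases before the start, chr9:21615966-21615995, plus strand: aggtagatgtGCGCTTGCGCagagccgccc
Crebbp, GC box 21 bases before the start, chr16:4213408-4213437, minus strand: gcggccgggggcGGGCGGtgagcgctgcgg
A match of letters or a CpG count is a description of the sequence and says nothing of binding. Methylation of these CpG was not measured.

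Levels are given as CPM, counts scaled to the TMM-adjusted library total. Libraries held 26612431 to 41059082 estimated counts, and all 9 genes passed the filter on low counts in every comparison. Zbtb38 was at 164 and 152 CPM in WT, 117 and 106 CPM in HET, and 18.5 to 50.1 CPM (median 30.4) in KO, so that every KO library lay below every control. The 929-base Zbtb38 model held 446 and 271 estimated counts in WT, 352 and 292 in HET and 252 to 483 in KO. The longest model (7406 bases) held 4521 and 2686 in WT, 2601 and 1773 in HET and 144 to 611 in KO. The KO level thus includes a short model whose counts overlapped those in WT. The paper reports that RNA of the floxed exon was completely lost in KO mice. Reads per exon were not examined here. Bcl6 itself was at 235 and 247 CPM in WT, 278 and 293 CPM in HET, and 168 to 278 CPM (median 245) in KO, and the groups overlapped except that both HET libraries were above WT. The library farthest from the rest was KO replicate 6, whose median correlation with them was 0.954, where the others had 0.971 to 0.983. Summed B lineage markers (4 genes) were at 5512 CPM or more in every library. Summed germinal center markers (8 genes) were at 2369 to 2602 CPM in WT, 3237 to 3346 CPM in HET and 1822 to 3825 CPM in KO. The 8 myeloid markers summed to 458 to 583 CPM in WT, 88.4 to 90.3 CPM in HET and 75.7 to 769 CPM in KO, and the 5 naive B cell markers to 753 to 831, 367 to 416 and 462 to 1110 CPM. The 5 erythroid markers summed to 45.3 to 57.2 CPM in WT, 35.4 to 38.7 CPM in HET and 55.3 to 96.0 CPM in KO, and of the 4 tested in KO against the pooled controls, 3 were higher at an unadjusted p under 0.05 and 0 passed the adjusted threshold (edgeR). The 5 plasma cell markers summed to 1379 to 1600.4 CPM, 1176 to 1268 CPM and 1158 to 1737 CPM. The 10 T cell markers summed to 255 to 260 CPM in WT, 194 to 196 CPM in HET and 179 to 273 CPM in KO. A sum follows its most abundant genes and can hide differences in the rest. In HET against WT, 9 of the 10 T cell markers were lower and 1 was higher, with a median log2 fold change of -1.71. Of the 5 erythroid markers 4 were lower and 1 was higher, with a median of -2.33. No marker of any of these lists was under 1 CPM in every library, and in bulk RNA fewer cells of a type and less RNA per cell cannot be told apart. The 4 Y-linked genes summed to at least 207 CPM in both WT and in 3 KO libraries and to at most 7.01 CPM in both HET and the other 3 KO libraries. The HET and WT libraries thus differ in Y-linked RNA as well as genotype, and only the KO libraries hold both kinds. With the level of Y-linked genes as a term in the fit on all 10 libraries, chosen after seeing the data, 0 of 9 genes were called in HET against WT and their median log2 fold change was 0.18, where it was 0.08 without the term.

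Deletion of Zbtb38 was not accompanied by a detected change in any of the 9 genes. In KO against WT, 0 of 9 genes passed an adjusted p of 0.1 (edgeR's quasi-likelihood test, Benjamini-Hochberg over all genes), where 0.00704% of 14203 genes passed, which is Zbtb38 alone. Zbtb38, summed over its transcripts, passed with a log2 fold change of -2.31 and an adjusted p of 0.0734 in edgeR, so a smaller change may not pass. At an unadjusted p under 0.05 the count was also 0 of 9, against 2.19% of all genes. With WT and HET pooled as controls, 0 of 9 passed, against 0.00749% of 13347 genes, again Zbtb38 alone. At an unadjusted p under 0.05 it was 0 of 9, against 6.3% of all genes. The median log2 fold change of the 9 genes was -0.06 in KO against WT, where the median of all genes was 0.01. Against the pooled controls it was -0.10, where the median of all genes was 0.02. DESeq2 also called 0 of 9 in both comparisons.

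**Figure D1:**
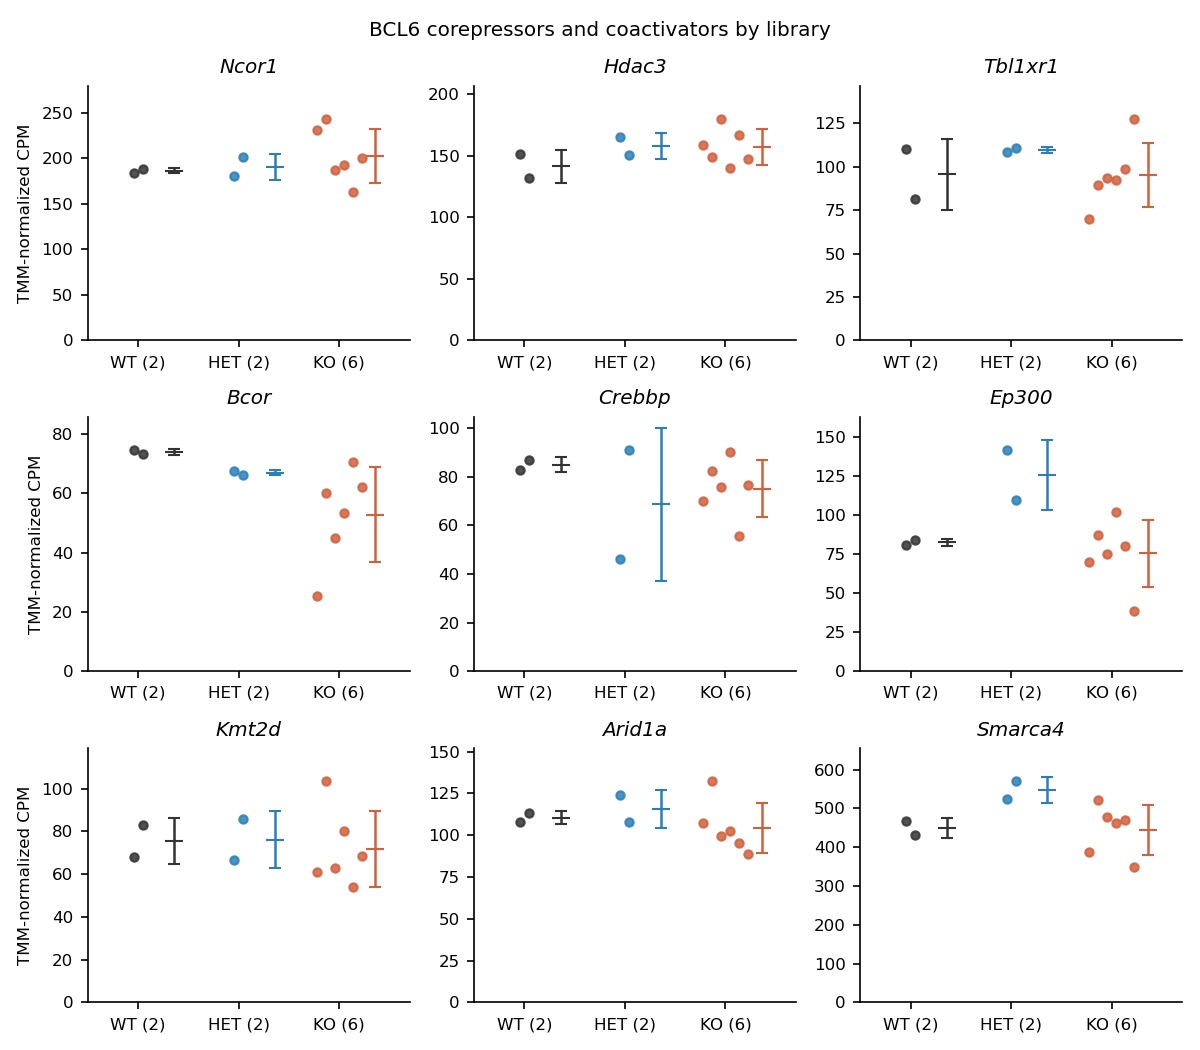
TMM-normalized CPM (vertical axes from 0) of the 9 genes in WT, HET and KO, with 1 point per library and, beside the points, the mean with a bar of 1 SD. Every KO library of Bcor lies below both WT libraries, whereas the Ep300 and Smarca4 values of both HET libraries lie above all KO and WT libraries.

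Ncor1, on chromosome 11 (62316426 to 62458541, minus strand, GRCm38), encodes the scaffold through which BCL6 engages HDAC3. It was at 184 and 189 CPM in WT, 181 and 201 CPM in HET, and 163 to 243 CPM (median 197) in KO. The KO range enclosed all 4 controls. KO over the pooled controls gave a log2 fold change of 0.11 ± 0.12 (SE), with an adjusted p of 0.835 in edgeR. Hdac3, which encodes the catalytic deacetylase of that complex, was at 151 and 132 CPM in WT, 166 and 151 CPM in HET, and 140.5 to 179.9 CPM (median 154) in KO. It was the steadiest of the 9 genes, and its groups overlapped. Its log2 fold change over the pooled controls was 0.08, with a 95% interval of -0.15 to 0.30.

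Tbl1xr1 (chromosome 3, 22076652 to 22216594, plus strand) encodes the WD40 subunit that exchanges corepressors for coactivators. It was at 110.1 and 81.3 CPM in WT, 108 and 111 CPM in HET, and 70.0 to 127 CPM (median 92.9) in KO. The highest value was that of KO replicate 6 and the lowest that of KO replicate 1. Over the pooled controls the log2 fold change was -0.10 ± 0.15 (SE; adjusted p = 0.894, edgeR).

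Bcor (chromosome X, 12036740 to 12160355, minus strand) encodes the corepressor that binds the BCL6 BTB domain independently of NCoR. It was at 74.6 and 73.3 CPM in WT, 67.5 and 66.3 CPM in HET, and 25.3 to 70.7 CPM (median 56.9) in KO. All 6 KO libraries were below both WT libraries, as were those of 4.17% of all genes tested, but 1 KO library (replicate 5) was above both HET libraries. The log2 fold change was -0.47 ± 0.30 (SE) against WT, with a 95% interval of -1.13 to 0.19 and an adjusted p of 0.999 in edgeR. Against the pooled controls it was -0.41 ± 0.22 (SE; adjusted p = 0.744, edgeR). KO replicate 1 was the lowest library at 25.3 CPM, and the next lowest KO library was at 45.1 CPM.

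Crebbp (chromosome 16, 4081328 to 4213997, minus strand) encodes the acetyltransferase that marks GC enhancers. It was at 82.6 and 87.0 CPM in WT, 46.3 and 90.9 CPM in HET, and 55.6 to 90.1 CPM (median 76.1) in KO. The HET libraries lay at the 2 ends of the whole range. KO over the pooled controls had a log2 fold change of -0.02 ± 0.19 (SE; adjusted p = 0.985, edgeR). Kmt2d (chromosome 15, 98831669 to 98871204, minus strand), the enhancer H3K4 methyltransferase, was at 67.8 and 83.1 CPM in WT, 66.6 and 85.7 CPM in HET, and 54.1 to 103 CPM (median 65.8) in KO. Its KO range likewise enclosed all controls, with a log2 fold change of -0.07 ± 0.17 (SE).

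Ep300 (chromosome 15, 81585351 to 81652077, plus strand), the paralog of Crebbp, had the widest spread. It was at 81.0 and 84.3 CPM in WT, 142 and 109.7 CPM in HET, and 38.6 to 102 CPM (median 77.6) in KO. The HET libraries were the 2 highest and KO replicate 6 the lowest, whereas the WT values lay inside the KO range. KO over WT gave a log2 fold change of -0.12 ± 0.28 (SE). In KO against HET, where both groups carry Cre, it was -0.74 ± 0.26 (SE), with a 95% interval of -1.31 to -0.17, an unadjusted p of 0.0158 and an adjusted p of 0.404 in edgeR. It was the single gene of the 9 with an unadjusted p under 0.05 in that comparison, in which 10.2% of all genes had one, and 0 of 9 passed the adjusted threshold, against 0.00697% of 14354 genes. Without HET replicate 1 the log2 fold change was -0.54 and the unadjusted p was no longer under 0.05. HET over WT gave 0.62 ± 0.33 (SE; adjusted p = 0.806, edgeR).

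Arid1a (chromosome 4, 133679008 to 133756769, minus strand), the DNA-binding subunit of canonical SWI/SNF, was at 108 and 113 CPM in WT, 124 and 108 CPM in HET, and 89.0 to 132 CPM (median 101) in KO. The KO range enclosed all controls. Its log2 fold change over the pooled controls was -0.11 ± 0.12 (SE; adjusted p = 0.845, edgeR). Smarca4 (chromosome 9, 21616169 to 21704230, plus strand), the BRG1 ATPase of the complex, lies on the same chromosome as Zbtb38, 75.0 Mb away. It was at 468 and 431 CPM in WT, 523 and 570.3 CPM in HET, and 348 to 521 CPM (median 467) in KO. Both HET libraries were above every other library. The log2 fold change was -0.30 ± 0.15 (SE) in KO against HET (adjusted p = 0.514, edgeR) and 0.00 ± 0.16 (SE) in KO against WT.

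The groups with HET libraries were compared in the same way. All 6 KO libraries were below both HET libraries for Ep300 and Smarca4, as they were for 8.1% of all genes. In HET against WT, 0 of 9 genes passed the adjusted threshold, against 0.00697% of all genes, and 0 of 9 had an unadjusted p under 0.05, against 6.42%. Both HET libraries were above both WT libraries for Ep300 and Smarca4 (22.1% of all genes) and below them for Bcor (25.4% of all genes), shares of the 9 genes near or below those of all genes. No gene of the 9 separated all KO libraries from all 4 controls, as 1.06% of all genes did downwards and 0.502% upwards. The gene called in both comparisons with HET was Hnrnpll, which encodes an RNA-binding splicing factor. It was at 0 in both HET libraries, 4.91 and 5.16 CPM in WT and 1.82 to 4.96 CPM in KO. Zbtb38 itself passed in neither comparison, with log2 fold changes of -1.82 in KO against HET and -0.49 in HET against WT. Failing this threshold is therefore not evidence of an unchanged level.

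**Figure D2:**
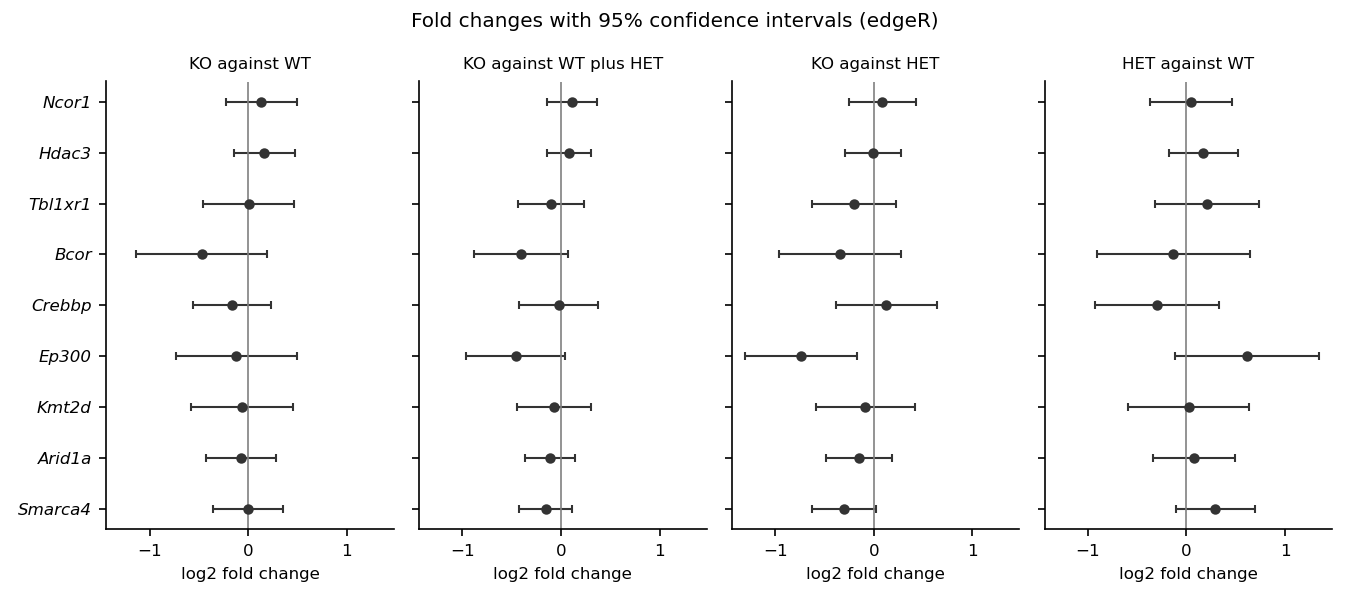
Log2 fold changes (horizontal axes) of the 9 genes in the 4 comparisons of genotypes, first group over second, with 95% confidence intervals from edgeR. Of the 36 intervals, that of Ep300 in KO against HET (-1.31 to -0.17) is the one that leaves out 0.

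The precision of these comparisons differed between genes. In KO against the pooled controls the 95% interval of Hdac3 was -0.15 to 0.30 and that of Ncor1 was -0.14 to 0.37, whereas that of Ep300 was -0.96 to 0.05 and that of Bcor -0.88 to 0.07. Across all 10 libraries the coefficient of variation (CV) of CPM was 31.2% for Ep300, 25.3% for Bcor, 20.0% for Kmt2d and 19.5% for Crebbp. It was 16.9% for Tbl1xr1, 14.0% for Smarca4, 12.1% for Ncor1, 11.9% for Arid1a and 9.04% for Hdac3. The 5275 genes at a mean of 40 CPM or more had a median CV of 16.2% (quartiles 12.2% and 21.1%). Ep300 and Bcor were thus above the upper quartile, and Ncor1, Arid1a and Hdac3 below the lower one.

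Libraries differed in how well long transcripts were represented, and the mean of the 9 genes moved with it. Among genes at 40 CPM or more and outside the 9, the median log2 deviation of 599 genes with a longest transcript of at least 6000 bases minus that of 1983 genes under 2500 bases was 0.12 and 0.15 in WT, 0.25 and 0.34 in HET, and -0.62 to 0.22 in KO. Of the 9 genes, 8 have a longest transcript of over 6000 bases, and Hdac3 has 2004. Their mean log2 deviation was lowest in KO replicate 1 (-0.24), the library with the lowest value for long transcripts, and highest in HET replicate 2 (0.18), the library with the highest. With this difference as a term in the fit, chosen after seeing the data, the log2 fold change of Ep300 in KO against HET was -0.46 and its unadjusted p was no longer under 0.05. That of Bcor against WT was -0.19, and that of Bcor against the pooled controls was -0.08. Single genes departed from the mean. Ncor1 was at 231 CPM in KO replicate 1, above all controls. Tbl1xr1 was highest in KO replicate 6 (127 CPM), where long minus short was -0.27. The long minus short difference was positive in every WT and HET library and negative in KO replicates 1, 3, 5 and 6. The term therefore overlaps in part with genotype, and the 2 cannot be fully told apart. The part of the length shift in the values of the 9 genes was not tested further.

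**Figure D3:**
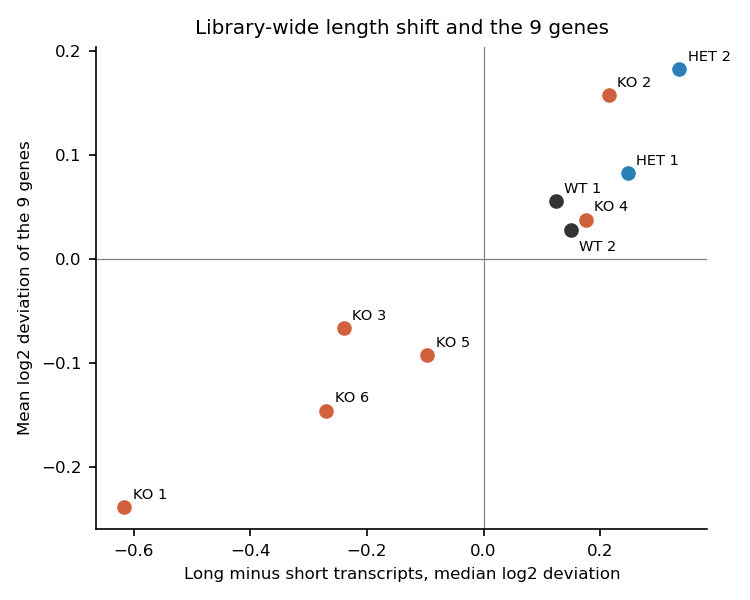
Mean log2 deviation of the 9 genes from their mean over libraries (vertical axis) against the difference of long minus short transcripts in the same library (horizontal axis), with 1 point per library. KO replicates 1, 3, 5 and 6 are negative on both axes, and the other 6 libraries are positive on both.

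Per length, the 9 genes fell into tiers. Summed TPM, which corrects for transcript length, averaged over 10 libraries 120.4 for Ncor1, 114 for Smarca4 and 113 for Hdac3, then 51.6 for Tbl1xr1 and 20.4 for Arid1a. Ep300 averaged 14.5 TPM, Bcor 13.4 TPM, Crebbp 12.7 TPM and Kmt2d 5.46 TPM. Of the 8 neighbours in this order, 4 differed in all 10 libraries, namely Hdac3 over Tbl1xr1, Tbl1xr1 over Arid1a, Arid1a over Ep300 and Crebbp over Kmt2d (exact paired permutation test over all sign flips, two-sided, adjusted p = 0.00391, the smallest p this design allows before adjustment being 0.00195). The top 3 genes did not differ among themselves beyond their spread, nor did Ep300, Bcor and Crebbp. The deacetylase and its scaffold were listed several times above the acetyltransferases and the methyltransferase, in each genotype.

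**Figure D4:**
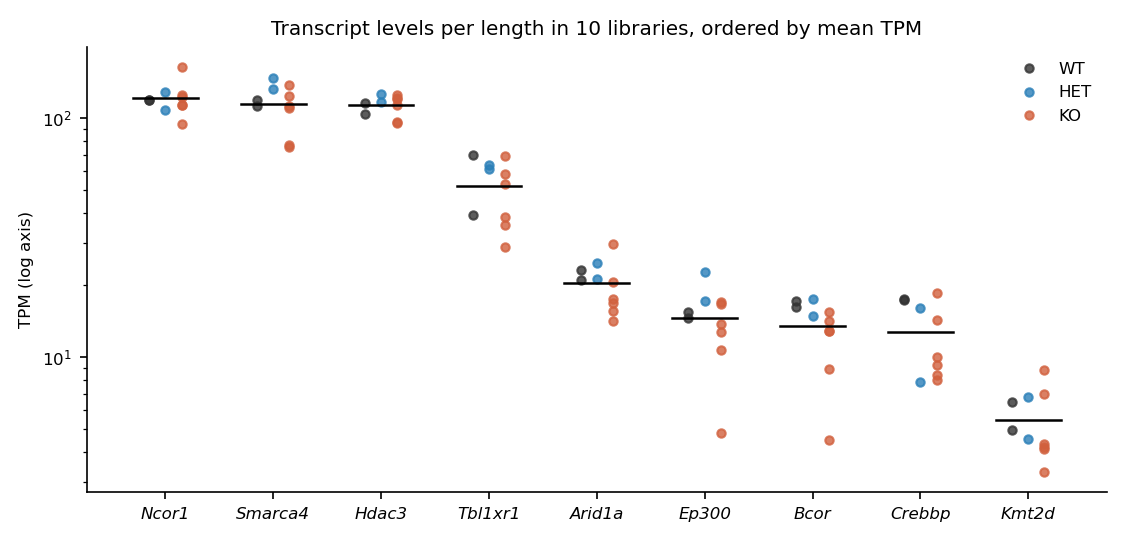
TPM (log axis) of the 9 genes in each of the 10 libraries, ordered by the mean, which is drawn as a bar. The first 3 genes average 113 to 120.4 TPM, and Kmt2d, at 5.46 TPM, is the lowest.

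The place of Ncor1 and Tbl1xr1 in that order rests on short transcript models. For Ncor1, the 1695-base ENSMUST00000155486.7 held 58.6% of its TPM and 40.3% of its estimated counts, whereas the longest model has 9037 bases. For Tbl1xr1, a model of 354 bases (ENSMUST00000201467.1) held 28.5% of its TPM and 1.67% of its estimated counts. Neither model has a coding sequence of a whole number of codons. Expressed as CPM per kilobase of the longest transcript, the order was Hdac3 (76.9), Smarca4 (73.2), Ncor1 (21.8), Arid1a (13.2), Tbl1xr1 (11.9), Ep300 (9.11), Bcor (8.67), Crebbp (7.02) and Kmt2d (3.72). Kmt2d was lowest on both scales, whereas Smarca4 was above Ncor1 in all 10 libraries only on the second scale.

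Transcript use was compared next, as the share of a gene's TPM held by its most abundant transcript, for the 8 genes with more than 1 transcript above 0. None of the 8 shares differed between KO and the pooled controls after adjustment (exact permutation test, two-sided, smallest adjusted p = 0.419). For Ncor1 the share of the 1695-base model was 57.1% and 53.1% in WT, 60.4% and 54.8% in HET and 56.1% to 62.0% (median 60.6%) in KO. The groups overlapped, and the exact permutation p was 0.0762 before adjustment. For Arid1a the share of ENSMUST00000145664.8 was 64.0% and 57.6% in WT, 60.0% and 63.3% in HET, and 49.7% to 91.0% (median 78.1%) in KO. The KO libraries spread to both sides of the controls, with an SD of 16.4 percentage points against 2.97 in the 4 controls. For Crebbp the full-length model held 49.0% and 53.4% in WT, 68.9% and 62.2% in HET, and 52.1% to 99.3% (median 74.4%) in KO, with overlap again.

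The balance between paralogs differed by complex but not detectably by genotype. Each gene was expressed as a percent of its own TPM plus that of a paralog. This was done for 7 pairs. Bcor held 97.9% on average against Bcorl1. Smarca4 held 87.2% against Smarca2, the BRM ATPase. Tbl1xr1 held 63.6% against Tbl1x, and Crebbp 47.1% against Ep300. The Tbl1xr1 share includes the 354-base model that held 28.5% of its TPM and 1.67% of its estimated counts, so it depends on the TPM scale. Hdac3 was the minor partner beside Hdac1 (23.6%), as was Kmt2d beside Kmt2c (24.1%). In none of the 7 pairs did KO differ from the pooled controls after adjustment (exact permutation test, two-sided, smallest adjusted p = 0.400). The Crebbp share was 53.0% and 54.5% in WT, 25.8% and 48.3% in HET, and 38.5% to 63.6% (median 46.9%) in KO. The lowest value belonged to HET replicate 1, where Ep300 was the highest of all libraries and Crebbp the lowest.

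**Figure D5:**
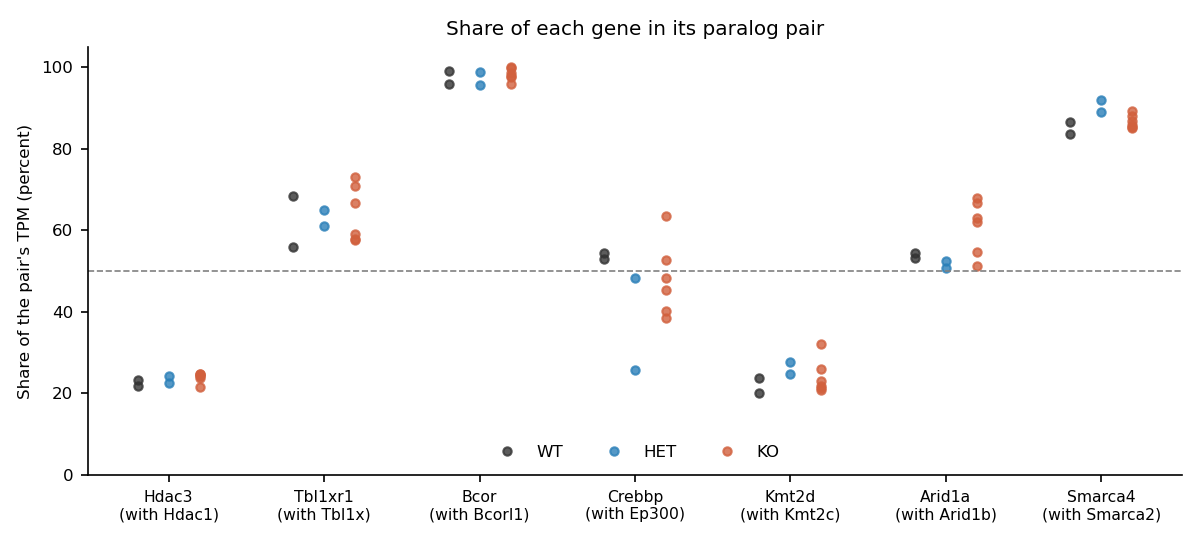
Percent of a paralog pair's summed TPM held by each gene (vertical axis) in each library, with the partner in brackets and a dashed line at equal shares. The Arid1a values average 52.8% in the controls and 61.0% in KO, and the remaining pairs differ by less than 3 percentage points.

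The smallest p among the pairs belonged to Arid1a and Arid1b, the alternative DNA-binding subunits of SWI/SNF. The Arid1a share was 53.2% and 54.5% in WT, 52.5% and 50.8% in HET, and 51.2% to 68.0% (median 62.6%) in KO. Of the 6 KO libraries, 5 were above all 4 controls. The difference of 8.21 percentage points had an exact permutation p of 0.0571 before adjustment and 0.400 after it. On the count scale it was the partner that was lower, since Arid1b was at 106 and 109.9 CPM in WT, 132 and 116 CPM in HET, and 56.3 to 103 CPM (median 74.4) in KO. All KO libraries were below all 4 controls, as they were for 1.06% of all genes. The log2 fold change over the pooled controls was -0.59 ± 0.17 (SE, unadjusted p = 0.00498, adjusted p = 0.744, edgeR). With the term for long against short transcripts it was -0.29.

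The partners of the 9 genes in their complexes were counted from gene lists. In KO against the pooled controls 0 genes of any of these lists passed the adjusted threshold in edgeR, whereas DESeq2 called Smarcc2 among the genes named here. A list of 7 genes joined partners in the NCoR complex with class IIa HDACs. At an unadjusted p under 0.05 in the lower direction (4.05% of all genes) were 2 of these 7. In the same direction were 0 of 10 genes of the BCOR Polycomb complex, 2 of 15 NuRD and CoREST genes and 1 of 9 KMT2C/D genes. So were 4 of 19 SWI/SNF subunits and 3 of 10 other acetyltransferases and p160 coactivators. In the higher direction (2.26% of all genes) the count was 0 in each of these lists. The median log2 fold changes of the lists lay between -0.12 and 0.01, where all genes had 0.02. Against WT alone the counts in the lower direction were 1 of 7 NCoR and class IIa HDAC genes and 1 of 19 SWI/SNF subunits. They were 0 in the other 4 lists, where 2.19% of all genes had an unadjusted p under 0.05 in either direction.

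Among the corepressor partners the named genes were Coro2a, an NCoR-associated actin-binding protein (-0.44), Tbl1x, the paralog of Tbl1xr1 (-0.32), and the NuRD genes Chd4 (-0.33) and Gatad2a (-0.32), all as log2 fold changes over the pooled controls. Among the coactivator partners they were Rbbp5, the core subunit of the H3K4 methyltransferases (-0.42), the acetyltransferase Kat7 (-0.29) and the p160 coactivators Ncoa1 (-0.47) and Ncoa3 (-0.50). All of these had an adjusted p of 0.744 in edgeR and so did not pass. With the term for long against short transcripts the log2 fold changes were -0.07 for Ncoa1, -0.18 for Ncoa3, -0.11 for Rbbp5, -0.16 for Chd4 and -0.17 for Gatad2a, whereas those of Coro2a (-0.32), Tbl1x (-0.34) and Kat7 (-0.25) moved less. That term lowered the number of all genes at an unadjusted p under 0.05 from 841 to 205. With it 0 genes passed the adjusted threshold in this comparison, so Zbtb38 no longer passed either. In KO against HET the number at an unadjusted p under 0.05 went from 1467 to 1250. In HET against WT it rose from 922 to 1495. Of the SWI/SNF subunits the smallest unadjusted p was that of Smarcc2, the BAF170 scaffold (0.00167), which was at 161 and 139.8 CPM in WT, 177 and 168 CPM in HET, and 99.8 to 136 CPM (median 118) in KO. All KO libraries were below all controls, as they were for 1.06% of all genes. Smarcc2 was named for its p in this same comparison, so this separation adds no further support. The log2 fold change was -0.45 ± 0.11 (SE, adjusted p = 0.744, edgeR), and DESeq2 gave an adjusted p of 0.0964. Arid2, which marks the PBAF form of the complex, had a log2 fold change of -0.41, and of -0.19 with the length term.

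Genes under the control of these cofactors were listed too. Of 16 genes known to be repressed by BCL6, such as Prdm1, Irf4, Cd69 and Gpr183, 0 had an unadjusted p under 0.05 in either direction in KO against the pooled controls, and 12 had a log2 fold change above 0, as did 52.8% of all genes. Their median was 0.14. MHC class II genes are activated by CREBBP and CIITA, and the list of 10 used here also held Ciita itself. Of these 10, 0 had an unadjusted p under 0.05 in the same comparison. The median log2 fold change was 0.12, with 8 genes above 0 and 2 below, of which Ciita was the lowest (-0.30). In KO against HET the BCL6-repressed list had 3 genes higher at an unadjusted p under 0.05 (4.76% of all genes) and 0 lower (5.46% of all genes), with 0 past the adjusted threshold, and the naive B cell and myeloid marker sums above were lower in HET than in most KO libraries. The part of those cells in the difference was not tested.

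To ask whether the 9 genes vary together, all 36 pairs were correlated over the 10 libraries on log2(CPM + 1), with 100000 permutations each. After adjustment 0 of 36 pairs had a p under 0.1, 19 correlations were positive, and the median r was 0.07. The highest was Ep300 with Smarca4 (Pearson r = 0.837, permutation p = 0.00323, adjusted p = 0.116, Spearman rho = 0.709, permutation p = 0.0271, adjusted p = 0.244). Without the 2 libraries farthest from the median of Ep300 the r was 0.702, and without KO replicate 6 it was 0.666. The order of the pairs rested on that library, since without it Tbl1xr1 with Smarca4 came first (r = 0.802, where it was 0.109 with all 10 libraries), and the adjusted p of each of the 36 pairs was 0.350 or higher by permutation. The lowest was Hdac3 with Kmt2d (r = -0.638, adjusted p = 0.330, permutation, with rho = -0.758). The choice of scale mattered here, since on log2(TPM + 1) 34 of 36 correlations were positive, the median r was 0.52 and 11 pairs had an adjusted p under 0.1 by permutation. The mean difference of the 4 corepressors minus Crebbp, Ep300 and Kmt2d on the log2 CPM scale was 0.53 ± 0.21 (SD, n = 2) in WT, 0.52 ± 0.22 (SD, n = 2) in HET and 0.61 ± 0.32 (SD, n = 6) in KO, and the groups overlapped. Of 14345 other genes, those whose log2(CPM + 1) followed the mean standardized level of the 9 most closely over the 10 libraries were ENSMUSG00000079304.5 (r = 0.978), Pex6 (r = 0.955) and Plppr3 (r = 0.952), and these libraries share the length shift described above.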

How the data were processed

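The authors extracted RNA from sorted GC B cells, prepared cDNA with SMART-Seq v4, obtained paired-end reads and deposited, per library, the estimated counts and TPM of 64019 transcripts from Salmon 0.9.1 on Gencode vM17. Of the estimated counts, 46.8% were not whole. Strandedness was not given in the sources used here. Counts and TPM were summed per gene and counts were rounded. Groups came from the genotype labels. edgeR 4.0.16 (R 4.3.3) with TMM and filterByExpr was fitted on all genes, with Benjamini-Hochberg adjustment and a threshold of 0.1. KO against WT and KO against WT plus HET were fitted on their own libraries, and both comparisons with HET on all 10. CPM are TMM-normalized. Fold changes have SE and 95% intervals from the same fit. Shares, order and correlations were tested with permutation code written in Python 3.11.15 with numpy 2.4.6, and ranks came from scipy 1.17.1. Alternatives were DESeq2 1.42.0, limma 3.58.1 on TPM, other filters, length-scaled counts, a replicate block and leaving out each library. Fits and permutation tests were tested on simulated data. The members and gene lists were chosen with earlier results of these data known. One paralog pair and 1 lineage marker are not reported here. Named genes were the 9, the other paralogs, Zbtb38, Bcl6, up to 3 genes per list with the smallest p under 0.05 in KO against the pooled controls, and the 3 genes most like the mean of the 9. Hnrnpll, Ciita and the BCL6-repressed examples were named outside that rule. Of the SWI/SNF list, 19 of 20 genes passed the filter. Positions are from Gencode vM21 (GRCm38). Near-identical paralogs can share reads, which limits single gene values. Replicates are single libraries, and p-values measure the spread between them.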

Additional observations from a re-analysis of the deposited data

Results flagged for a closer look

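Of 33 groups of 6 KO values examined, 1 held a library far from the others, where chance gives about 1 in 20, or 1.7. The Hdac3 share of Hdac3 plus Hdac1 TPM was 21.6% in KO replicate 1 and 23.9% to 24.8% in the other 5 KO libraries, and the gap was 0.701 of the whole range, above the critical value of 0.625. KO replicate 1 was also the library with the lowest representation of long transcripts.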

How the results depend on the processing

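In all 4 comparisons 0 of the 9 genes were called under every alternative, including those that left out 1 library. The counts of differing main transcript shares and paralog shares stayed at 0. The count of differing neighbours in the level order stayed at 4, but per kilobase of the longest transcript the pairs were mostly others. They were Smarca4 over Ncor1, Ncor1 over Arid1a, Tbl1xr1 over Ep300 and Crebbp over Kmt2d, and only the last was shared with the TPM order. Among correlations, log2(TPM + 1) gave 11 of 36 pairs instead of 0. Genes called over the whole table varied more. DESeq2 called 10, 25, 504 and 162 genes in KO against WT, KO against WT plus HET, KO against HET and HET against WT, where edgeR called 1 in each, and leaving out 1 library gave 0 to 2, 1 to 2, 0 to 5 and 0. In HET against WT, a fit on those 4 libraries alone called 523 genes. The replicate block called 6, 0, 4 and 66 genes. Libraries with the same replicate number had correlations of deviations from -0.00803 to 0.128, over 2 shared numbers. These values are few and depend on one another, so they cannot decide whether the numbers pair the libraries. With the block, 0 of the 9 genes were called, and Bcor in KO against WT had a log2 fold change of -0.90 (adjusted p = 0.569, edgeR). On log2(TPM + 1) the median of all genes in KO against WT was -0.11 and that of the 9 genes -0.21, and with the term for long against short transcripts the median of the 9 was 0.07. DESeq2 called Smarcc2 in KO against the pooled controls, and Tbl1x, Arid1b, Smarcc2, Rbbp5 and Kat7 in KO against HET. It called 25 and 504 of 17488 genes in these comparisons. Smarcc2, Rbbp5 and Kat7 were named for their p against the pooled controls, which include the HET libraries. Their calls in KO against HET therefore add no independent support. The Zbtb38 difference kept its sign under every alternative in all 4 comparisons, but in KO against WT its edgeR adjusted p without 1 library ranged from 0.0122 to 1.00. The cause of these changes was not tested. With 2 WT and 2 HET libraries, the intervals of Ep300 and Bcor are wide and the size of their differences is not settled.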
